A study of Homo sapiens and Mus musculus with 213 samples.

Results

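The baseline transcriptome of wild-type HEK293T cells is described here from 3 RNA-seq libraries, out of 213 samples of all assays in the series. HEK293T is an established line of human embryonic kidney origin that carries adenovirus genes and the large T antigen of the SV40 virus. The series edits the G-quadruplex upstream of the P1 promoter of the MYC gene, and the 3 libraries are the unedited cells, labelled as wild type and listed with no added agent, in DMEM with serum. They were labelled as biological replicates 1, 2 and 3, and the sources do not say whether they came from separate thaws, days or clones. No condition was compared, so every value below is a level or the spread of a level over the 3 libraries. All genes listed in the 3 files were kept, 58336 identifiers in all, of which 57754 had a gene model.

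A cultured line keeps the genes that every dividing cell needs, such as those for ribosomes, the cytoskeleton, glycolysis, protein folding and degradation. On top of these it keeps some of the transcription factors and structural genes of the tissue it came from, and it shuts off most genes of specialised organs. In the embryonic kidney, the nephron arises from progenitor cells of the metanephric mesenchyme, which carry factors such as SIX2, while the collecting ducts grow from the ureteric bud. The adrenal gland lies beside the kidney, with a steroid-making cortex and a medulla of neural crest origin, and HEK293 cells have long been known to carry neurofilaments, the intermediate filaments of neurons.

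The libraries held 76975859, 68170323 and 79690245 reads assigned to genes, and 29381, 29105 and 29419 genes had at least 1 read. Levels are given as TPM, the normalised read count of a gene divided by the merged length of its exons and scaled so that each library sums to 1000000. Each ± value is the SD over the 3 libraries (n = 3). Across the 20732 genes with a mean normalised count of at least 10, the log2 values of library pairs had a Pearson correlation of 0.991 for replicates 1 and 2, of 0.994 for 1 and 3 and of 0.995 for 2 and 3. The chi-square per gene of each pair lay between 26.8 and 61.1, far from the 1 of sampling noise, so no library was a second copy of another.

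A gene was taken as on at 1 TPM or more in every library, as silent at 3 reads or fewer in every library, and as low in between. By this rule 16641 of 57754 genes (28.8%) were on, 8272 were low and 32841 were silent, with 25066 of the latter at 0 reads throughout. A count of 0 in a library allows up to 3 reads there, for counting error only. Of 19773 protein-coding genes, 11698 (59.2%) were on, 3195 were low and 4880 were silent. The median protein-coding gene that was on stood at 21.3 TPM, with the middle of the range between 8.18 and 50.5. At the top, 1240 protein-coding genes reached 100 TPM and 43 reached 1000 TPM.

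Noncoding classes were mostly off. Among 14367 long noncoding RNA (lncRNA) genes, 1196 (8.32%) were on at a median of 3.08 TPM and 10301 were silent. Selection for poly(A) RNA leaves out most transcripts without a tail, and the class of small and other RNAs had 255 of 8527 genes on. Processed pseudogenes, which are copies of spliced messages pasted into the genome, were on more often than the other noncoding classes, at a share close to that of all genes. Of these, 3158 of 10617 (29.7%) were on, 5954 were silent and 477 reached 100 TPM. Protein-coding genes took 92.4% to 92.9% of reads in each library, lncRNAs 0.808% to 0.950% and processed pseudogenes 5.84% to 6.22%. Per length, processed pseudogenes made up 30.1%, 31.4% and 31.5% of the TPM total. The plot of levels by class shows the protein-coding genes as a peak above the threshold and the lncRNAs mostly below it.

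**Figure D1:**
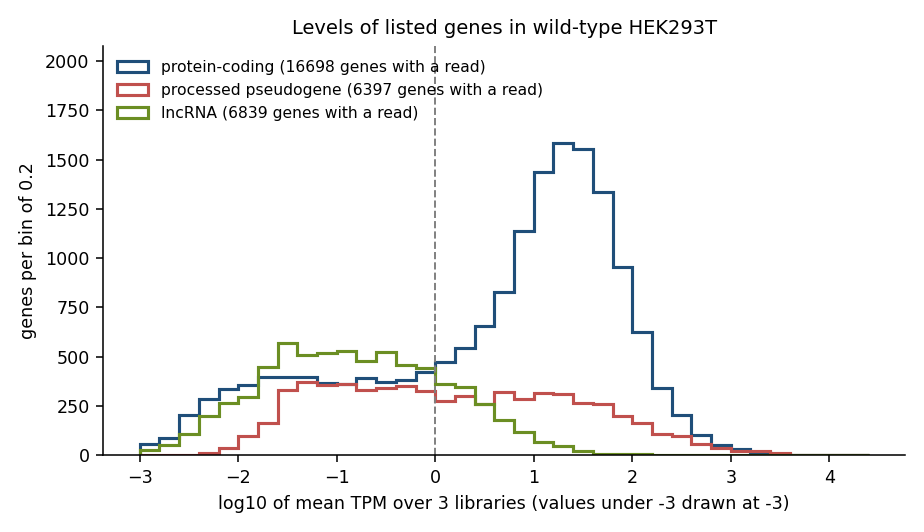
Number of genes (y axis, per bin of 0.2) by the log10 of their mean TPM over the 3 libraries (x axis) for protein-coding genes, processed pseudogenes and lncRNAs with at least 1 read; the dashed line marks 1 TPM. Protein-coding genes peak between 10 and 100 TPM, lncRNAs lie mostly under 1 TPM, and pseudogenes spread over the whole range.

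The gene with the highest level per length in all 3 libraries was a pseudogene, RPL39P3, a copy of the message of RPL39, which encodes a small protein of the large ribosomal subunit. RPL39P3 lies on GRCh38 at chr6:73373108-73373263 on the minus strand, and RPL39 at chrX:119786504-119791630, also on the minus strand. RPL39P3 was at 17329, 18847 and 17521 TPM, from 64954, 63877 and 70569 reads. RPL39 itself was at 82.2 ± 3.88 TPM, from 4393, 3614 and 4532 reads. The coding sequence of RPL39, read from the reference genome through the gene models, is shown because the pseudogene matched it at all 156 bases with 0 mismatches. The capitals mark 3 bases on each side of the places where RPL39 exons are joined, after base 3 and after base 107, which are broken by introns at RPL39 and unbroken at RPL39P3.
RPL39P3: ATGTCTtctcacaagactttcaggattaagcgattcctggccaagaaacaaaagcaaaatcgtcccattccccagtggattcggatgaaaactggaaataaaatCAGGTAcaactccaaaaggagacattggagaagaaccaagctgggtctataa
The longest stretch of the coding sequence without a junction was 104 bases in RPL39, and reads had been sequenced for 75 cycles and aligned without splitting across introns. How many of the reads at the copy came from the RPL39 message was not tested.

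Other copies stood beside it. The pseudogenes ENSG00000283041 and ENSG00000218175, which have no symbol, were at 3978 ± 322 and 3756 ± 249 TPM. RPL36AP37 was at 5524 ± 282 TPM, RPS27P3 at 3679.8 ± 321, RPL32P18 at 3100.4 ± 211 and RPL24P4 at 2973 ± 91.6. In the RPS27 family, 97.1% of the reads were on pseudogenes, in the RPL36A family 96.6% and in the RPL39 family 94.1%. Over all 78 ribosomal protein genes with named processed pseudogenes, 27.02% of the family's reads lay on the copies, and 17 of the 78 genes had fewer reads than their copies. For all other parent genes, 11.1% of the family's reads lay on copies. Outside the ribosome, EIF4A1, a helicase of translation initiation, had 97.1% of its family's reads on 13 copies, the NPM1 family, named for a nucleolar histone chaperone, 50.4% on 49 copies, and the YBX1 family, named for a cold-shock RNA-binding protein, 50.2% on 10. The levels of these parent genes are therefore uncertain, at least by the share of reads that lay on their copies. A parent that lies under another gene on the same strand may also have few reads, as described below. How far this added to the shares, for instance for EIF4A1 with a mean of 772 reads, was not tested.

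Whether a copy was on went with how long a stretch of bases it shared with its parent, a comparison chosen after the values were seen. Of 6322 processed pseudogenes with a named parent, 2247 (35.5%) were on. Among the 1053 whose longest exact stretch shared with the parent transcript was under 25 bases, 42 (3.99%) were on. The share was 21.1% for stretches of 25 to 49 bases, 53.5% for 50 to 74, 71.6% for 75 to under 150 and 86.3% for 150 or more. Where the parent gene was itself not on, 10 of 315 copies (3.17%) were on. For ribosomal protein parents, the share went from 4.58% under 25 bases to 77.6% at 150 or more.

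**Figure D2:**
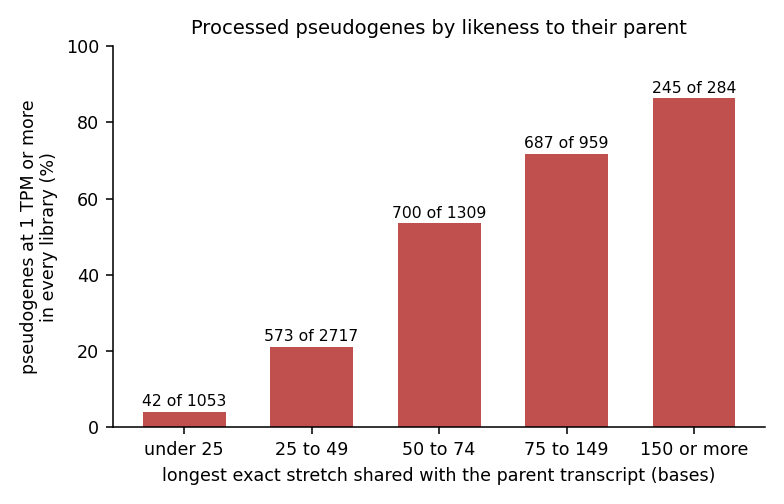
Share of processed pseudogenes at 1 TPM or more in every library (y axis, %) by the longest exact stretch they share with the canonical transcript of their parent (x axis, bases); numbers above the bars are the pseudogenes on, of all in the bin. The share rises in every step, from 3.99% to 86.3%.

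Genes that lie under other genes were low in these files. Among protein-coding genes with over 90% of their canonical transcript under exons of another gene on the same strand, 85 of 609 (13.96%) were on, against 60.4% of the 17328 genes with no such overlap. Where the overlap of over 90% was with genes of the opposite strand only, 18 of 34 (52.9%) were on. For overlaps of over 50 to 90%, 147 of 386 (38.1%) were on for the same strand. For the opposite strand only, 162 of 239 (67.8%) were on. This touched some well-known genes. TUBB3, the neuronal beta tubulin, was at 0.179, 0.180 and 0.261 TPM with 92.8% of its transcript under another gene, and PSMA2, a subunit of the proteasome core present in every cell, was at 8.13, 6.63 and 8.27 TPM with all of it covered. PSMA6, IPO4, ASNS, CD68 and TLR9 had 81.4% or more of their transcripts covered in the same way, and their values are likewise uncertain.

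The promoters of on and silent genes differed in their base content. RefSeq promoters of GRCh38.p14, from 250 bases before to 20 bases after the start, were matched to 15272 of 19723 protein-coding genes. The measure of CpG content was the number of CpG sites over that expected from the C and G of the same window. Its median was 0.268 over 3381 silent genes, 0.577 over 2294 low genes, and 0.812, 0.859, 0.875 and 0.890 over the quartiles of on genes from the lowest to the highest TPM. A value above 0.6 was found in 20.6% of silent promoters and 89.1% of those on. In the other direction, 8.87% of the 1872 genes under 0.2 were on, and 90.8% of the 2013 genes at 1 or above.

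Some sequence motifs also differed in frequency between these classes. The TATA box, searched as TATAAA on the sense strand between 40 and 15 bases before the start, was present in 9.91% of silent, 4.80% of low and 1.46% of on promoters, against 3.83% of all. The motif of ETS-family factors, CCGGAAG on either strand, was present in 3.55% of silent promoters and in 14.4%, 18.9%, 22.0% and 24.5% of the on quartiles, against 14.2% of all. The GC box, GGGCGG on either strand, was present in 26.5% of silent and 74.7% of on promoters, against 60.4% of all. The CCAAT box was present in 35.8% of silent and 31.3% of low promoters and in 33.9%, 33.7%, 37.5% and 41.7% of the on quartiles, against 35.7% of all. Within each band of CpG content under 1, promoters with a TATA box were on less often than those without, for instance 4.35% of 207 against 9.43% of 1665 under 0.2. In the band at 1 or above, the shares were 91.4% of 35 and 90.7% of 1978. These shares are descriptions, since starts used in HEK293T were not measured here, and a match of letters is not a bound site.

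**Figure D3:**
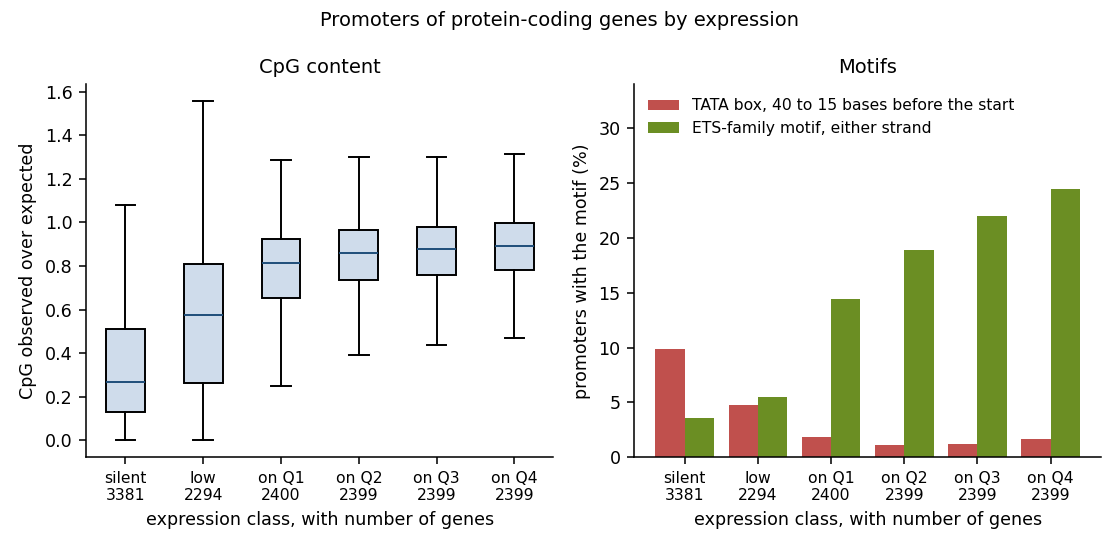
Left, CpG observed over expected (y axis) in promoters of silent, low and on genes, the on genes in quartiles of mean TPM (x axis, with the number of genes); boxes give the quartiles and median, whiskers reach the last value within 1.5 times the box height, and values beyond are not drawn. Right, share of promoters (y axis, %) with a TATA box or an ETS-family motif in the same classes. CpG content and the ETS motif are higher in each on quartile than in silent genes, and the TATA box is most frequent in silent genes.

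Promoters are shown for genes that carry the results, to let the motifs be seen in place. EEF2, the elongation factor that moves the ribosome along the message, was the nuclear gene with the most reads. By merged exon length EEF2 also had the highest nuclear protein-coding level. It is the TATA-type example among genes on, with the box at 30 bases before the start in capitals (chr19:3985444-3985713, minus strand). RPS12, a protein of the small ribosomal subunit, starts in a run of pyrimidines, with CTTTC in capitals (chr6:132814319-132814588, plus strand). This start motif, searched on the sense strand within 8 bases of the start, was present in 33.8% of 74 on promoters of ribosomal protein and elongation factor genes and in 2.46% of all. ACTG1, the cytoplasmic gamma actin, shows 3 GC boxes in capitals on either strand, with matches that overlap a marked box left out (chr17:81512780-81513049, minus strand). SLC34A1, the phosphate transporter of the proximal tubule, had 0 reads in all 3 libraries and shows a silent CpG-poor promoter, at a ratio of 0.206, with a TATA box at 31 bases before the start (chr5:177384184-177384453, plus strand).
EEF2: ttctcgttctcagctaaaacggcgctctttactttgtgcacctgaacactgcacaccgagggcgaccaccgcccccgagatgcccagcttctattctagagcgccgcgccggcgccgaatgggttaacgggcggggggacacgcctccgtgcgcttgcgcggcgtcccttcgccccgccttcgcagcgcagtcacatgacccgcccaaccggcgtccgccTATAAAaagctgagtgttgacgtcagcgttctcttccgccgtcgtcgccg
RPS12: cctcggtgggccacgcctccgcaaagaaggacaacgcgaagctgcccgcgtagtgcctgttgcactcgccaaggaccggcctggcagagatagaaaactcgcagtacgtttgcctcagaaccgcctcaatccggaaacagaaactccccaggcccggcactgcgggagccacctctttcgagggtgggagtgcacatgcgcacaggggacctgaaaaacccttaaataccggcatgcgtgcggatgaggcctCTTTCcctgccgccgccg
ACTG1: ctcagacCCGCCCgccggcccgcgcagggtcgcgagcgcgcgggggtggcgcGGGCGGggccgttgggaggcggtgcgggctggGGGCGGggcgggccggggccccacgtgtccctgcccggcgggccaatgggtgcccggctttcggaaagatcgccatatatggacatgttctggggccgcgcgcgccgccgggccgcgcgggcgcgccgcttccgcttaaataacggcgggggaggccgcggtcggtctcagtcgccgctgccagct
SLC34A1: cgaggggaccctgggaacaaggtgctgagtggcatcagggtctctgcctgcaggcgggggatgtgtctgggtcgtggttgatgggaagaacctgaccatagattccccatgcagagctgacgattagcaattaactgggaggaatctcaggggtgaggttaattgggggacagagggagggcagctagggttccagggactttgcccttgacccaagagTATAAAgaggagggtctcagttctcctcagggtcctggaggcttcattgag
The CpG ratio of the EEF2 window was 1.31, of RPS12 0.885 and of ACTG1 1.11.

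The highest levels belonged to translation, the cytoskeleton, energy metabolism and protein folding. EEF2 was at 4253, 5466 and 4891 TPM, lowest in replicate 1 and highest in replicate 2. The order of the highest genes depends on the length used. With the canonical transcript as length, RACK1 at a mean of 5190.5 and ACTG1 at 4055 TPM stood above EEF2 at 3976. With merged exons RACK1 was at 1608 TPM. The ribosomal proteins RPS6 at 3064 ± 249, RPS4X at 2733 ± 149.9 and RPS12 at 1851 ± 211 TPM were among the 15 highest nuclear protein-coding genes. ACTG1 was at 3166, 2976 and 2844 TPM and TUBB, a beta tubulin, at 1631 ± 106. The glycolytic enzyme GAPDH was at 2385, 2562 and 2545 TPM and LDHB, a lactate dehydrogenase, at 1658 ± 13.3. Among the rest of the 15 were the cytosolic chaperone HSP90AB1 at 2476 ± 129.7, the ADP/ATP carrier SLC25A5 at 2244 ± 134, the cytokine MIF, with 64.1% of its transcript under another gene, at 2199 ± 204, the ATP synthase subunit ATP5F1B at 1974 ± 76.6, the brain-type creatine kinase CKB at 1906 ± 83.4 and the polyubiquitin gene UBB at 1756 ± 91.0 TPM. The reads were spread over many genes, since the 100 genes with the most reads held 13.1%, 13.5% and 13.3% of each library's reads and the 1000 with the most 43.4% to 43.6%. Duplicate reads had been removed before counting, and the effect of this on the highest genes and these shares was not tested.

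All 13 protein genes of the mitochondrial genome were on. MT-CO3, a subunit of cytochrome c oxidase, was at 4569, 5377 and 3868 TPM, MT-ATP6, of the ATP synthase, at 4023, 4704 and 3153, and MT-CO1, also of the oxidase, at 2993, 4578 and 2801. MT-CO2 stood at 3594 ± 821 and MT-ND4, of complex I, at 3104 ± 767 TPM, while MT-ND6, from the other strand, was lowest at 174 ± 35.0. Replicate 2 was highest for the first 3 and replicate 3 was lowest for all 13. Mitochondrial reads made up 1.06%, 1.31% and 0.881% of the libraries.

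Core machinery was almost complete. The families in this paragraph and the next were chosen by symbol after the values were seen. All 30 Mediator subunits, all 8 cullins and all 78 mitochondrial ribosomal proteins were on, as were 31 of 32 subunits of the nuclear RNA polymerases. Of general transcription factors and TBP-associated factors, 46 of 50 were on, and of the USP deubiquitinases 46 of 50. Somewhat fewer were on among mitochondrial carriers (42 of 48), kinesins (34 of 39), DEAD and DEAH box helicases (45 of 53) and RAB GTPases (49 of 63). Of 508 genes named ZNF, which encode zinc finger proteins, 382 (75.2%) were on and 69 were silent.

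Families of organ-specific or defence genes were at the other end. None of 416 olfactory receptor genes was on, with 407 silent and 381 at 0 reads. None of 22 interferon genes, 40 beta-defensins, 27 taste receptors, 18 late cornified envelope genes or 29 leukocyte receptors of the SIGLEC, LILR and KIR groups was on. Of 94 keratin-associated proteins 1 was on, of 39 chemokines 1, of 35 interleukins 2, of 55 keratins 3, of 24 claudins 2 and of 14 aquaporins 2. The chemokine was CXCL16 at 6.47, 5.46 and 5.59 TPM and the interleukin subunits were IL12A at 5.47, 5.04 and 4.91 and IL23A at 1.27, 1.56 and 1.91. Of transporters, 196 of 353 solute carriers and 23 of 45 ATP-binding cassette proteins were on, and of the cytochrome P450 enzymes 13 of 56. Lists of protein-coding genes below can be read against the 59.2% of all protein-coding genes that were on.

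The proteasome, which degrades ubiquitin-tagged proteins, was on as its constitutive form. All 14 genes of the 20S core and all 17 of the 19S cap were on, led by PSMB4 at 492, 464 and 525, PSMB5 at 473, 397 and 464 and PSMA7 at 429, 417 and 474 TPM. Of the 3 subunits that replace core subunits in immune cells or after interferon, PSMB8 was silent at 0, 1 and 3 reads, PSMB9 was low at 0.274, 0.276 and 0.244 TPM and PSMB10 was on at 4.30, 3.26 and 3.95 TPM. Of the PSMB10 transcript, 56.1% lies under another gene, so its level is uncertain.

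Chaperones and nuclear transport were also high. All 8 subunits of the CCT chaperonin, which folds actin and tubulin, were on, with CCT4 at 1058, 928 and 1054 and CCT3 at 1025, 979 and 1036 TPM. HSP90AA1, the stress-responsive HSP90, was at 1678, 1244 and 1334 TPM. Among inducible or tissue-specific members, HSPA2, HSPA6 and HSPA1L were low and CRYAB, the lens and muscle crystallin, was silent. HSPA1A was at 24, 7 and 6 reads against 70645, 11571 and 11746 for HSPA1B, a near-identical copy beside it, so the split between them is uncertain. Of 17 nuclear transport genes 16 were on, led by the GTPase RAN at 680.3 ± 35.8, the exportin CSE1L at 576 ± 34.6 and the importin KPNB1 at 297 ± 28.8 TPM. KPNA7, an importin of oocytes and early embryos, was silent at 0, 2 and 0 reads.

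Cytoplasmic tubulins and actins were on and several tissue-specific forms were not. TUBA1B was the highest alpha tubulin at 1372, 1283 and 1395 TPM and ACTB, the beta actin, was at 1303, 873 and 1014 TPM. The muscle actins ACTA1 and ACTC1 were low at 0.645 ± 0.108 and 0.662 ± 0.0940 TPM, ACTA2, of smooth muscle, was on at 11.9 ± 1.83, and ACTG2, of the gut, was silent. TUBA3C and TUBA3D, of testis, and TUBB1, of platelets, had 0 reads.

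Mitotic and sterol synthesis genes were on. All 13 mitotic genes were on, at a median of 144 TPM, led by CCNB1, which drives entry into mitosis, at 398, 321 and 365 TPM. TOP2A, which untangles sister chromosomes, was at 275, 314 and 274 TPM and AURKB, the kinase of the chromosomal passenger complex, at 237, 240.0 and 262. All 12 genes of sterol synthesis were on, led by INSIG1 at 130.1 ± 11.5, SQLE at 126 ± 16.6 and FDFT1 at 113 ± 8.40 TPM.

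Of 16 genes often used as references, all were on, over a wide range. HPRT1, of purine salvage, was at 389, 368 and 359 TPM, TBP, the TATA-binding protein, at 49.6, 45.1 and 50.7, and RPL13A, of the ribosome, at 562, 744 and 695. TFRC, the transferrin receptor, was at 47.4, 26.1 and 30.6 TPM. Between the highest and lowest library, 2 of the 16 exceeded 1.5-fold, and these were ACTB and TFRC, both highest in replicate 1.

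Of 17 nephron progenitor genes, 12 (70.6%) were on, 4 low and 1 silent, against 59.2% on among all protein-coding genes, at a median of 4.69 TPM. The higher share depended on the threshold, since at 5 TPM 8 of the 17 were on, against 9620 of 19773 protein-coding genes. CITED1, a coactivator of the earliest cap mesenchyme, was at 72.9, 82.3 and 103 TPM. SIX2, which keeps the progenitors undifferentiated, was at 84.6, 64.2 and 69.3 TPM. HOXA11, a homeobox factor of the metanephros, was at 69.9, 60.3 and 60.2 TPM. Less abundant were WT1, the Wilms tumour factor, at 4.49, 3.03 and 3.23, LHX1 at 1.54, 1.82 and 1.61 and PAX2 at 1.09, 1.90 and 1.59 TPM, all on in each library. In contrast, OSR1, of the intermediate mesoderm, was low at 0.0315, 0.0698 and 0.0367 TPM, and PAX8, the partner of PAX2 in the renal lineage, was silent at 1, 0 and 0 reads.

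Genes of the mature tubules were mostly off, and those of podocytes were mixed. Of 14 proximal tubule genes, LRP2, the endocytic receptor megalin, was the only member on, at 9.06, 11.7 and 8.91 TPM, and SLC34A1, SLC22A6 and SLC22A8, transporters of phosphate and organic anions, were at 0 reads. Of 16 genes of the distal nephron and collecting duct, the only member on was AQP3, a water channel, at 2.92, 3.04 and 2.81 TPM. UMOD, the uromodulin of the thick ascending limb, AQP2 and AVPR2, the vasopressin-regulated channel and receptor of the duct, and FOXI1 of intercalated cells were at 0 reads. Of 9 podocyte genes 4 were on, among them the adaptor CD2AP at 37.7 ± 4.83, KIRREL1 at 23.0 ± 2.39 and PODXL at 20.9 ± 1.72 TPM, while the defining slit diaphragm gene NPHS1, at 1, 2 and 1 reads, was silent. Of 8 ureteric bud genes 4 were on, led by GATA2 at 20.2 ± 3.83, WNT11 at 7.81, 7.77 and 6.93 and EMX2 at 5.46, 7.16 and 6.81 TPM, RET, the receptor for GDNF, was at 1.44, 2.00 and 1.78, and TFAP2B was at 0 reads.

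Of the 4 neurofilament genes 3 were on, and the neuronal list as a whole was no fuller than other genes. Of 26 neuronal genes, 15 (57.7%) were on, 7 low and 4 silent, close to the 59.2% of all protein-coding genes, and their median was 2.95 TPM. UCHL1, a neuronal ubiquitin hydrolase, was at 265, 263 and 260.3 TPM in a narrow range. Of the neurofilament subunits, NEFM was at 128, 153 and 132 TPM, NEFL at 73.5, 73.3 and 70.1 and INA, the internexin, at 14.9, 12.3 and 11.8, while NEFH, the heavy subunit of mature axons, was low at 0.0768, 0.0364 and 0.0306. VAMP2, of synaptic vesicles, was at 33.8, 46.8 and 40.5 TPM and STMN3, of the stathmin family, at 33.3 ± 1.81. Defining genes of mature or migrating neurons were low or silent, with DCX at 3, 2 and 2 reads, STMN2 at 0, 2 and 3, SNAP25 at 5, 5 and 5, ELAVL4 at 2, 0 and 0 and ELAVL3 at 0.

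Neural progenitor and glial genes were mixed. Of 15 neural progenitor genes 9 were on, led by VIM, the vimentin filament also of mesenchyme, at 463, 505 and 421 TPM, SOX4 at 136, 142 and 119 and ZIC2 at 129 ± 17.4. SOX2 was at 30.2 ± 3.75 and PAX6 at 6.49 ± 0.816 TPM, whereas SOX1 and SOX11 were silent. Of 12 glial genes 3 were on, the oligodendrocyte factors OLIG2 at 14.5, 11.8 and 10.7 and OLIG1 at 2.05, 3.28 and 2.98 and the glutamate transporter SLC1A3 at 11.4, 6.47 and 7.70 TPM. SOX10, which defines the oligodendrocyte and neural crest lines, had 0 reads, and GFAP, the astrocyte filament, was low at 0.148, 0.135 and 0.155.

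The adrenal lists were mostly off. Of 18 genes of the medulla 5 were on, ISL1 at 26.4, 23.0 and 25.9, GATA3 at 6.34, 8.77 and 7.60, INSM1 at 5.57, 6.47 and 5.67, HAND2 at 3.50, 3.71 and 3.55 and CHGA, the granule protein chromogranin A, at 1.03, 1.26 and 1.27 TPM. The genes that define chromaffin cells were off, with TH and DBH, enzymes of catecholamine synthesis, and their regulator PHOX2A at 0 reads in all libraries. PNMT, which makes adrenaline, was low at 0.609, 0.436 and 0.467 TPM, from 17, 11 and 14 reads. Of 10 genes of the adrenal cortex none was on. CYP11B1, CYP11B2, CYP21A2 and MC2R, of steroid synthesis and the response to ACTH, were at 0 reads, and NR5A1, the master factor, was low at 0.110, 0.135 and 0.0795 TPM. In bulk RNA such low levels in all cells and high levels in a few cells cannot be told apart.

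Of 20 mesenchymal genes 10 (50.0%) were on, 7 low and 3 silent, against 59.2% on among all protein-coding genes. All 7 transcription factors of the list, SNAI1, SNAI2, TWIST1, TWIST2, ZEB1, ZEB2 and PRRX1, were on. SNAI2 was at 63.0, 75.5 and 62.4 TPM, TWIST1 at 29.1, 31.0 and 30.7 and ZEB1 at 16.7, 21.7 and 17.2. Of 5 adhesion and receptor genes only CDH2, the N-cadherin, was on, at 38.4, 45.3 and 39.3 TPM, with 2 low and 2 silent. Of 8 matrix genes of fibroblasts 2 were on, FN1 at 7.19, 10.7 and 6.67 and COL1A1 at 4.66, 5.52 and 4.85 TPM. COL1A2, the partner of COL1A1 in type I collagen, had 0 reads. Of 16 epithelial genes 5 were on. KRT18 was at 37.8, 36.4 and 36.5 TPM, OCLN at 3.30, 3.63 and 3.08, CDH1, the E-cadherin, at 2.53, 3.70 and 2.60, KRT8, the filament partner of KRT18, at 2.36, 3.00 and 2.81 and EPCAM at 2.04, 1.80 and 1.80. KRT5, KRT7, KRT14 and CDH16, the kidney cadherin, had 0 reads, and none of the 4 epithelial splicing and transcription factors was on. CDH2 was above CDH1 in each library.

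Other lineages were off apart from isolated genes. Of 11 endothelial genes only SOX18 was on, at 7.91, 7.64 and 7.28 TPM, while CDH5 and PECAM1 had 1, 0 and 0 and 1, 0 and 0 reads and SOX17 had 0. Of 20 blood and immune genes 2 were on, among them CD8A at 1.03, 1.27 and 1.03 TPM, just over the threshold, and CD3E, MS4A1, IL1B, IL2 and IFNG had 0 reads. None of 12 liver genes was on, and SERPINA1 and G6PC1 had 0 reads. Of 17 muscle genes the factors NKX2-5, of the heart, at 78.5, 59.9 and 63.1 and GATA4 at 26.0, 20.0 and 20.0 TPM were on, none of 10 contractile genes was, and TBX5, MYF5, MYH7 and TNNT2 had 0 reads.

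Pluripotency and germline genes gave a few high members in lists that were otherwise off. LIN28B, which blocks maturation of let-7 microRNAs, was at 91.9, 83.1 and 79.0 TPM, the methyltransferase DNMT3B at 36.7, 33.9 and 34.8, KLF4 at 3.58, 4.91 and 3.42 and UTF1 at 2.67, 4.74 and 3.22. The defining factor POU5F1 was at 0 reads, as were DPPA4 and TDGF1, and NANOG was at 0, 0 and 1 reads. Of 22 germline and cancer-testis genes 19 were silent, and the only member on was PRAME at 54.8, 54.1 and 55.7 TPM. SYCP1, MAGEA12, GAGE1, CTAG1B, SSX2, XAGE1B and PAGE5 had 0 reads. The plot of lineage markers shows these lists side by side, with 70.6% of the nephron progenitor, 60.0% of the neural progenitor, 57.7% of the neuronal and 50.0% of the mesenchyme list on.

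**Figure D4:**
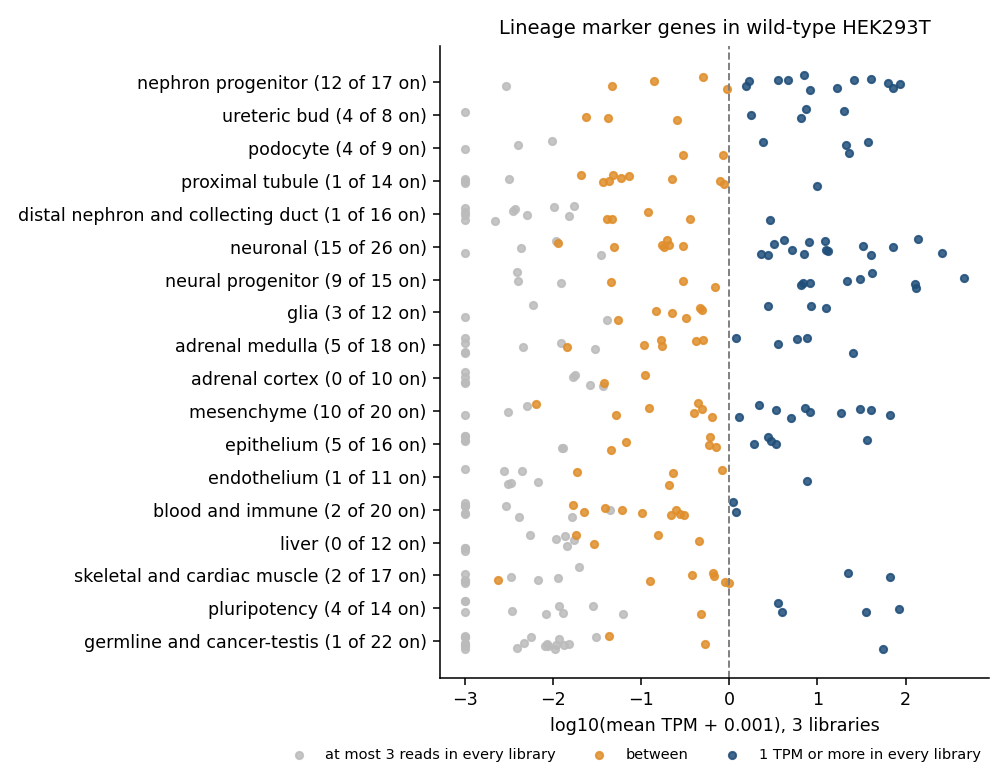
Mean TPM of each marker gene over the 3 libraries (x axis, log10 after adding 0.001) for 18 lineage lists (y axis, with the number on); colours give the class at the thresholds of 3 reads and 1 TPM, and the dashed line marks 1 TPM. The nephron progenitor list has 12 of 17 genes on, and the adrenal cortex and liver lists have none.

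Among developmental transcription factors of the families of SOX2, PAX2, GATA2, SIX2, EYA1 and LHX1, 36 of 56 were on. SOX9, of kidney, gonad and cartilage, was at 146, 189 and 152 TPM, above SOX4 and SOX12 at 104 ± 9.63. Of 6 GATA factors all except GATA1, of blood, were on, and of the PAX genes PAX2, PAX3, PAX6 and PAX9 were on. SOX10, SOX14, SOX17, PAX4, SIX6, LHX5 and LMX1A had 0 reads. Of 48 nuclear receptors 33 were on, led by the orphan receptors NR2F6 at 115, 91.9 and 99.3 and NR2F2 at 64.7, 62.2 and 63.5 TPM and by ESRRA at 60.9, 56.9 and 61.7. All 9 thyroid, retinoid and vitamin D receptors were on. Among steroid receptors the glucocorticoid receptor NR3C1 was on at 15.1, 16.6 and 15.1 TPM, whereas ESR1, of oestrogen, was silent at 0, 0 and 1 reads. NR1H4 and NR0B2, of bile acid sensing, had 0 reads.

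Of 58 receptor tyrosine kinases 34 were on. FGFR3 was at 54.3, 63.4 and 52.7 TPM and all 4 FGF receptors were on. EPHB4, an ephrin receptor, was at 44.9, 47.1 and 44.1 and PTK7, of planar cell polarity, at 35.9, 50.6 and 41.7 TPM. IGF1R was at 19.2 ± 3.10 and INSR at 9.53 ± 1.87 TPM, so that both insulin-family signalling receptors were on. EGFR was at 5.13, 7.18 and 4.83 and ERBB2 at 18.1, 20.7 and 18.4 TPM, and both PDGF receptors and all 3 neurotrophin receptors were low.

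G protein-coupled receptors were sparse for amines and peptides and richer for lipids and nucleotides. Of 19 muscarinic, adrenergic and dopamine receptors 3 were on, among them ADRA2C at 28.2, 34.6 and 32.9 and ADRB1 at 1.33, 1.53 and 1.11 TPM. CHRM1, CHRM2, ADRB3 and DRD5 had 0 reads, and CHRM3 was low at 0.261, 0.382 and 0.332. Of 27 lipid and nucleotide receptors 12 were on, led by LPAR3, for lysophosphatidic acid, at 75.2, 92.9 and 82.0, ADORA2B, for adenosine, at 33.2, 29.7 and 31.5 and P2RY1, for ADP, at 21.3, 21.2 and 20.9 TPM. S1PR4, P2RY12, P2RY13, P2RY14 and ADORA3 had 0 reads. Of 35 peptide and amine receptors 5 were on, CXCR4 at 3.03, 2.44 and 2.55, CCR10 at 1.49, 2.65 and 2.29, MC1R, with 56.5% of its transcript under another gene, at 1.96, 1.94 and 2.16, AGTR1 at 1.84, 2.00 and 2.15 and OPRL1 at 1.30, 2.12 and 1.47 TPM. OPRM1, CXCR1, CXCR3, CXCR6, CCR2, CCR8, MC2R, MC3R and AVPR2 had 0 reads.

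Calcium and mechanosensitive channels were on in 16 of 38 cases. ASIC1, an acid-sensing channel, was at 31.0, 45.3 and 37.9 TPM, PIEZO1, opened by membrane stretch, at 29.2, 35.5 and 26.4, and ORAI1, the pore of store-operated entry, at 28.2, 25.3 and 27.3. All 5 genes of store-operated entry, ORAI1 to ORAI3 with STIM1 and STIM2, were on. PIEZO2 was silent at 0, 0 and 1 reads, and TRPC7 and ASIC2 had 0. Of 21 TRP channels 5 were on, led by TRPM7 at 15.6 ± 0.476 and TRPC1 at 10.3 ± 0.830 TPM. Of the IP3 receptors, which release calcium from the endoplasmic reticulum, ITPR1, ITPR2 and ITPR3 were all on, and the 3 ryanodine receptors were low.

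Receptors used by viruses, relevant to a line in which vectors are made, were on in 21 of 28 cases. SLC1A5, an amino acid transporter and retrovirus receptor, was at 479, 558 and 570.4 TPM, DSG2, a desmoglein used by some adenoviruses, at 135, 157 and 127, and SLC7A1, the receptor of ecotropic retroviruses in rodents, at 133 ± 26.4. CXADR, of coxsackie and adenoviruses, was at 23.4, 20.5 and 18.4 TPM. TMPRSS2 was silent at 2, 3 and 3 reads, CD4 was silent at 0, 2 and 3 reads and HAVCR1 had 0.

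Of 29 genes of innate nucleic acid sensing 7 were on, 11 low and 11 silent. The genes on were 3 of 8 cytosolic sensors, 2 of 5 adaptors and 2 of 6 kinases and factors. The factor IRF3 was at 49.6, 46.4 and 53.9, the adaptor MAVS at 31.6, 29.9 and 25.4 and the kinase EIF2AK2, which senses double-stranded RNA, at 26.1, 23.8 and 20.3 TPM. RIGI, a sensor of viral RNA, was just on at 1.28 ± 0.143. In the DNA-sensing pathway, CGAS was low at 3, 4 and 4 reads and STING1 low at 0.399, 0.355 and 0.363 TPM. None of the 10 Toll-like receptors was on, with TLR2, TLR8 and TLR9 at 0 reads, as were PYCARD, CASP1 and GSDMD of the inflammasome.

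The hypoxia list was mostly on, and the share of the immediate early list depended on the threshold. Of 16 immediate early genes 11 (68.8%) were on, against 59.2% of all protein-coding genes. At 5 TPM 7 of the 16 were on, against 9620 of 19773 protein-coding genes. JUN was at 232, 239.9 and 229 TPM, IER2 at 39.1, 44.1 and 42.5 and ATF3 at 27.7, 60.6 and 68.8. FOS was low at 1.45, 0.823 and 0.717. Of 11 hypoxia targets 10 were on, led by LDHA at 573, 421 and 492, BNIP3 at 44.6, 40.5 and 42.9 and SLC2A1 at 24.9, 18.9 and 21.9 TPM, and CA9, a sharply oxygen-regulated target, was silent at 1, 0 and 0 reads.

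Most of the highest lncRNAs were hosts of small nucleolar RNAs. SNHG29 was at 181, 233 and 226, SNHG32 at 104, 155 and 128, SNHG3 at 119.6 ± 3.63 and SNHG1 at 116, 121 and 100.0 TPM, with SNHG19 at 99.3 ± 16.9 and GAS5 at 99.1 ± 10.9. The other two were VPS9D1-AS1, an antisense gene, at 147, 108 and 127 TPM and NORAD, which binds PUMILIO proteins, at 118, 133 and 121. The SNHG29 level depends on the length used, since its merged exons span 8947 bases and its canonical transcript 443, and the mean was 213 TPM with the former and 2764 with the latter. VPS9D1-AS1 is antisense to another gene, and whether strand was used in counting is not given in the sources used here, so its reads and those of its partner may not be told apart.

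By chromosome, the share of protein-coding genes on ran from 46.7% of 846 on X, 48.6% of 216 on 21 and 49.4% of 1309 on 11, which holds many olfactory receptor genes, to 64.9% of 265 on 18 and 67.6% of 321 on 13. Chromosomes 8 and Y were left out of this comparison. Each chromosome's highest gene was in most cases of translation, structure or metabolism. Beyond those already given, ENO1 led chromosome 1 at 1463 ± 167 TPM, TMSB10, an actin-binding peptide, 2 at 1559 ± 135, H1-10, a linker histone, 3 at 657 ± 75.8, H2AZ1, a histone variant, 4 at 1093 ± 81.2 and RACK1, a ribosome scaffold, 5 at 1608 ± 82.7. SCD, a fatty acid desaturase, led 10 at 735 ± 20.8, RPLP2 led 11 at 1359 ± 127, TPT1 led 13 at 391 ± 20.5 and RPLP1 led 15 at 1089 ± 69.1. RPS2 led 16 at 1065 ± 67.3, TYMS, of thymidylate synthesis, 18 at 290.4 ± 20.9, RPS21 led 20 at 1044 ± 89.1 and SOD1, the superoxide dismutase, 21 at 689 ± 15.1.

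The libraries differed from each other by more than counting error. Over the 20732 genes with a mean normalised count of at least 10, the median coefficient of variation (CV) over the 3 libraries was 10.8%, against 3.36% from counting alone, and 83.5% of genes exceeded their own counting CV. The CV was 26.1% at counts of 10 to 30, where counting alone gives 24.7%, and 7.60% above 10000, where counting gives 0.801%. The counting CV is the Poisson SD over the mean, while the CV of 3 libraries is a sample value whose median under counting alone lies lower. The share of genes that would exceed it under counting alone was not computed. By class, the median CV was 9.47% for protein-coding genes, 10.97% for processed pseudogenes and 20.9% for lncRNAs, whose median count of 45.7 was the lower. Among 11968 protein-coding genes with a mean normalised count of at least 100, 2542 (21.2%) stayed within 1.1-fold between the highest and lowest library, 812 (6.78%) exceeded 1.5-fold and 101 exceeded 2-fold. The steadiest were ESD at 12755, 12779 and 12743 normalised counts, AP3B1 at 7498, 7523 and 7511, SLC30A5 at 6941, 6932 and 6917 and TXNDC12 at 6449, 6420.5 and 6441, after C7orf25, which lies under another gene on the same strand.

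Replicate 1 stood apart. It was more than 1.5-fold below both others for 170 protein-coding genes and above both for 41. For replicate 2 these numbers were 11 and 49, and for replicate 3 they were 3 and 0. Of the 10 genes with the largest ratio of highest to lowest library, 9 had their lowest value in replicate 1 and HSPA1B its highest. FUT1, a fucosyltransferase, had 18.5, 253 and 161 normalised counts in replicates 1, 2 and 3. CHAC1, which breaks down glutathione, had 649.9, 4072 and 4847, INHBE, an inhibin subunit, 34.9, 240.2 and 171 and CTH, the cystathionine gamma-lyase, 1851, 7482 and 6130.3. In each, replicates 2 and 3 were far above replicate 1. The rest were BEST1 at 40.0, 237 and 167, SLCO2A1 at 42.03, 229 and 124, G0S2 at 55.4, 301 and 126, ADM2 at 207, 914 and 791 and NUPR1, a stress-induced nuclear protein, at 62.5, 259 and 239.7.

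The amino acid and endoplasmic reticulum stress list, which holds targets of the factor ATF4, was lowest in replicate 1 in 11 of 13 genes. Among all 20559 genes of at least 10 counts, 8015 were lowest there. Its median in replicate 1 against the mean of the other libraries was -0.65 on the log2 scale of counts plus 1, against -0.01 over all 20559 genes of at least 10 counts. DDIT3, the stress factor CHOP, had 251, 925 and 966 normalised counts. PSAT1, of serine synthesis, had 26014, 47456 and 46518, SESN2, a sestrin, 11210, 20925 and 25308 and ATF4 itself 47284, 66471 and 69677. In these genes replicates 2 and 3 lay close together and above replicate 1. HSPA5 and SDF2L1, chaperones of the endoplasmic reticulum induced by another arm of the response, went the other way, with HSPA5 at 56944, 38792 and 38185.

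Heat shock genes had the opposite pattern, with all 9 highest in replicate 1 and a median of 0.74 there. Among all 20559 genes of at least 10 counts, 7621 were highest in replicate 1. HSPA1B, the inducible HSP70, had 72415, 12988 and 11308 normalised counts, HSPA8, the constitutive HSP70, 185958, 59012 and 72054, and DNAJB1, a co-chaperone, 12226, 5062 and 6301. HSPB1, a small heat shock protein, was almost level at 2736, 2643 and 2639.6. The other genes most above both remaining libraries in replicate 1 were LIF, a cytokine, at 265, 119 and 129 and HSPA2 at 196, 104 and 92.4. Over all 27 chaperone genes of at least 10 counts, 24 were highest in replicate 1 and the median was 0.34. The cause of these differences was not tested.

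The promoters of CHAC1 and HSPA1B are printed since they lead these opposite groups, a choice made after the values were seen. The motif marked in each was also picked for its group. In CHAC1 (chr15:40953221-40953490, plus strand) the capitals mark a match to TGATGNAA, searched on both strands, the element bound by ATF4 with a C/EBP partner. This motif was present in 2.29% of all promoters, in 5.21% of silent and in 1.17% of on promoters. In HSPA1B (chr6:31827488-31827757, plus strand) they mark a pair of inverted heat shock units, GAANNTTC, upstream of the start. That pair was present in 5.02% of all, in 8.02% of silent and in 3.88% of on promoters. Whether either element had a part in the differences between libraries was not tested.
CHAC1: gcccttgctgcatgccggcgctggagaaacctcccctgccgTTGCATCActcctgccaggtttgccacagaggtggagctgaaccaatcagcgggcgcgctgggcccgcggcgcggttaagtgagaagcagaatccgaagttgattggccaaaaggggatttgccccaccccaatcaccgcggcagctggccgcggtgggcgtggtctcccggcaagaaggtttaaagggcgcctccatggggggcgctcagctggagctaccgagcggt
HSPA1B: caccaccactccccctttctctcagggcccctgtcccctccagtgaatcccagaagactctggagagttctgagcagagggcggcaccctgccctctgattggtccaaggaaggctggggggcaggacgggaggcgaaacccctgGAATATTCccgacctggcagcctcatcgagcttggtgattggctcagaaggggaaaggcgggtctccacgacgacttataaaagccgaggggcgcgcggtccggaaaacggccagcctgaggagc
HSPA1B also holds a TATA box and GC and CCAAT boxes, and CHAC1 a CCAAT box, by the searches above.

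Smaller shifts set the other libraries apart. In replicate 2, 31 of 33 proteasome genes had their lowest value, with a median of -0.20, and 33 of 48 receptor tyrosine kinases their highest, with a median of 0.22. The 13 mitochondrially encoded protein genes were all lowest in replicate 3, at a median of -0.49, and 10 of them highest in replicate 2, at 0.38. The cytosolic ribosomal protein genes were lowest in replicate 1 in 62 of 82 cases, at -0.14. Among all 20559 genes of at least 10 counts, 6999 were lowest and 7645 highest in replicate 2. Of the same genes, 5545 were lowest in replicate 3 and 8015 in replicate 1. The genes furthest above both others in replicate 2 after G0S2 and SLCO2A1 were AHNAK2, a very large scaffold protein, at 419, 800.3 and 436, LTBP2, of the extracellular matrix, at 238, 498 and 282 and MRC2, a collagen receptor, at 1386, 2723 and 1546 normalised counts. In replicate 3 no gene was 1.5-fold above both, and the largest was TEX19 at 206, 209.9 and 313.

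Replicates 2 and 3 also differed with transcript length. Among 600 protein-coding genes with a canonical transcript under 1000 bases, the median log2 difference of replicate 3 from the others was 0.12. Among 1137 genes with 8000 bases or more it was -0.17. For replicate 2 the same medians were -0.09 and 0.13, and for replicate 1 -0.04 and 0.04. Of the longest genes, 57.1% were highest in replicate 2 and 3.61% in replicate 3. By the GC content of the canonical transcript, the medians stayed between -0.06 and 0.06 in all classes and libraries. Replicate 1 went from 0.06 in genes under 40% GC to -0.04 at 60% or more. Between the same classes the share of genes highest in replicate 1 went from 50.5% to 31.9%, and in replicate 3 from 10.5% to 35.4%. The part of length or GC content in the proteasome, receptor and mitochondrial shifts was not tested. The plot of lists by library shows the stress and heat shock genes moving in replicate 1 and the reference genes centred on 0.

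**Figure D5:**
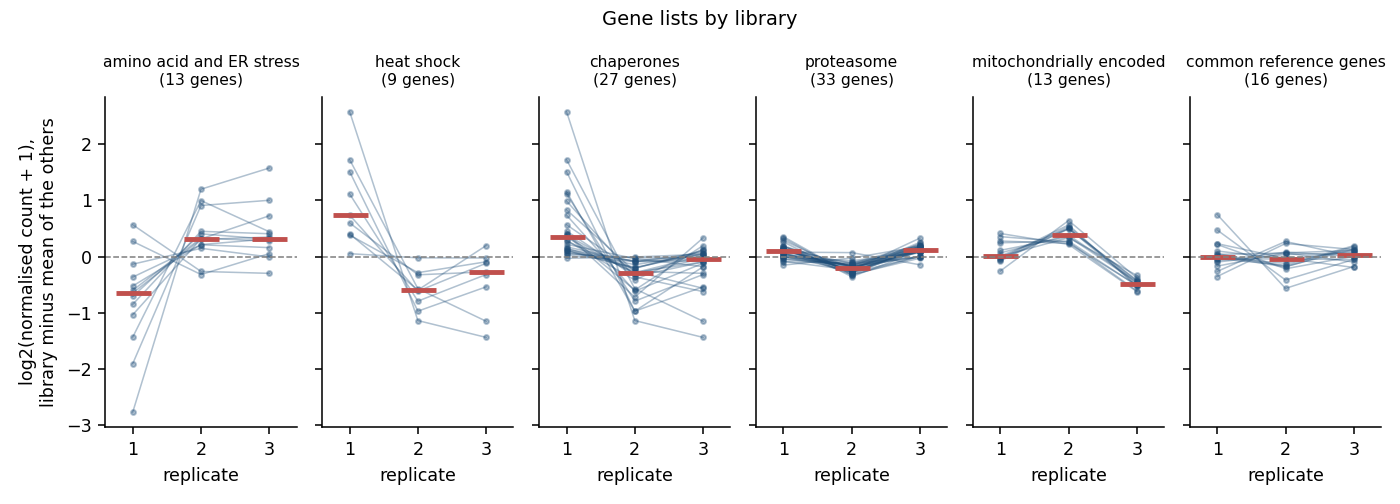
Each line is a gene, with its log2 (normalised count + 1) in a library minus the mean of the other libraries (y axis) by replicate (x axis), for 6 lists; red bars are medians. Amino acid and ER stress genes are lower and heat shock genes higher in replicate 1, proteasome genes are slightly lower in replicate 2, mitochondrial genes are lowest in replicate 3, and reference genes centre on 0.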

How the data were processed

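Poly(A) RNA of wild-type HEK293T cells was sequenced in 3 libraries for 75 cycles. Per the labels and the study's methods, the authors trimmed reads with cutadapt 1.18, aligned them to hg38 with BWA 0.7.17-r2188 (an aligner that does not split reads across introns), removed duplicates and counted reads per gene of GENCODE release 42. The counting tool and its use of strand are not given in the sources used here. The deposited values are signal values, gene counts that the authors divided by DESeq2 size factors, 1 file per library.

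Each library's size factor was recovered from the steps between values, and 100% of values came out as whole reads (tolerance 0.01). Gene models of GENCODE release 44 matched 57754 of 58336 identifiers, and the 582 without a model held 0.143% to 0.165% of reads and were left out. TPM was computed from normalised counts and merged exon length. Genes at 1 TPM or more in every library were taken as on, and those at 3 reads or fewer in every library as silent. Limits for 0 reads cover counting error only. Libraries were compared by the CV over 3 libraries for genes with a mean normalised count of at least 10, and by ratios at 100 or more. The edgeR dispersion was computed on the recovered reads. No condition was compared and no test was run. The scripts were tested on data made with known answers.

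The 38 gene lists held 753 symbols, of which 752 matched. They, the families, the promoter motifs and the thresholds were chosen with earlier results of these data known. Genes were named by a rule: the 15 highest nuclear and 5 highest mitochondrial protein-coding genes, the 8 highest lncRNAs and pseudogenes, in each list the 3 highest members, those at 0 reads and defining genes of the embryonic kidney, neurofilaments, chromaffin cells and references, the 10 largest and 5 smallest ratios between libraries with 5 genes per library pattern, and the highest gene of each chromosome. Other list members, families and genes named were chosen after their values were seen. Some genes that the rule names are not reported here. Promoter sequences and start positions were taken from RefSeq GRCh38.p14. Alternatives varied the threshold, the length, the TPM total, the minimum count, the scaling, the pseudocount and the libraries included. Python 3.11.15, numpy 2.4.6, pandas 2.3.3, matplotlib 3.10.9, R 4.3.3 and edgeR 4.0.16 were used.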

Additional observations from a re-analysis of the deposited data

How the results depend on the processing

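The number of genes on, 16641, lay between 12387 and 18401 for thresholds of 5 to 0.5 TPM and was 20589 with no length, at a mean normalised count of at least 10. It lay between 16240 and 17648 for the other lengths and TPM totals, of which the canonical length and the total without pseudogenes were added after seeing the data. Protein-coding genes on lay between 9620 and 12304, against 11698, with 11466 after leaving out genes under others on the same strand, also added. Of these genes, 11533 were on with both merged and canonical lengths. Silent genes numbered 25066 at 0 reads and 36502 at 10 reads or fewer. Without a library in turn, genes on lay between 16788 and 17017 and silent genes between 33267 and 33455. The median CV of 10.8% was 18.6% with no minimum count. The spread was 0.16, 0.16 and 0.15 as an SD of log2 values with 1, 0.1 or 10 added, on another scale than the CV. It lay between 7.51% and 10.9% without a library in turn, lowest without replicate 1, and edgeR gave a common biological CV of 12.2%. The 100 highest genes held 22.5% of TPM, against 13.3% of reads. Of the 38 lists, 0 moved past 1.5-fold in members on when a library was left out, while 12 did at 5 TPM, 3 at 2 TPM, 4 at 0.5 TPM, 2 with the longest transcript and 2 with the canonical length. With the canonical length, muscarinic, adrenergic and dopamine receptors on went from 3 to 1 and blood and immune genes on from 2 to 1. No paired analysis was possible because the libraries are of 1 condition.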
